A study of Mus musculus with 11 samples.

Results

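Livers of mice with a stabilised β-catenin, with or without Myc, were examined for 10 genes whose enzymes remove superoxide and peroxides. The genes were the glutathione peroxidases Gpx1, Gpx2, Gpx3 and Gpx4, the glutathione reductase Gsr, the peroxiredoxins Prdx1 and Prdx6, the catalase Cat, and the superoxide dismutases Sod1 and Sod2. Their array probes were found through the accession attached to each probe and its symbol in a RefSeq table of the mouse. This gave 16 of the 55681 probes on the array, and the 10 genes stood among 22293 genes and unnamed transcripts that were tested. All 16 probes were well above background on all 11 arrays, so each of the 10 genes was measured in every liver.

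Liver RNA of 11 untreated male mice was hybridised, 1 liver to an array. There were 4 livers labelled β-catΔEx3:Myc, 3 labelled β-catΔEx3 and 4 labelled WT. All mice shared a mixed background, mainly B6SJL with some 129S6, and were 22 to 40 days old. An exact age is given for 3 of them, which were 29 days (β-catΔEx3:Myc replicate 4), 30 days (β-catΔEx3 replicate 3) and 31 days (WT replicate 4). Deletion of exon 3 takes from β-catenin the residues whose phosphorylation leads to its breakdown, and Myc is a growth-promoting transcription factor. The promoter or recombinase behind either allele is not given in the sources used here. The series is presented as a set of hepatoblastoma models, and its design text speaks of tumour-bearing livers for every group and counts the last group only as expressing c-Myc, so whether a sample was tumour or surrounding liver is unknown. The labels name separate mice but no litters.

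The livers carried the RNA of hepatocytes, with 9 of 9 hepatocyte marker genes above background on every array. Transcripts of Myc were higher in β-catΔEx3:Myc than in WT livers by 3.37 ± 0.68 on the log2 scale (SE, limma adjusted p = 0.00277). They did not pass the test in β-catΔEx3 livers against WT (1.5 ± 0.73, adjusted p = 0.132) or in β-catΔEx3:Myc against β-catΔEx3 livers (1.87 ± 0.73, adjusted p = 0.395). Those of Ctnnb1, which encodes β-catenin, did not pass the test in any of the 3 comparisons. Across arrays the 75th percentile of the processed signal ranged from 227 to 354.3 scanner units, well above background were 47.8% to 52.4% of probes, and 0 spots were saturated. Levels below are log2 signals relative to the 75th percentile of the same array, in the order of replicates 1, 2, 3 and 4. Such a level can be compared between arrays for 1 gene but not between genes. A gene was called where limma's p-value, adjusted by the Benjamini-Hochberg method over all 22293 items, was below 0.05.

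Superoxide leaks from the respiratory chain and from oxidases, and superoxide dismutases turn it into hydrogen peroxide. Catalase splits hydrogen peroxide inside peroxisomes. Glutathione peroxidases reduce peroxides with glutathione, glutathione reductase regenerates that glutathione with NADPH, and peroxiredoxins reduce peroxides through a reactive cysteine. The liver is rich in these enzymes. Several of their genes are known targets of Nrf2, which binds antioxidant response elements, and Gpx2 has also been described as a target of β-catenin and its Tcf partners in gut epithelium.

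Promoter windows of 300 bases, 250 before and 50 after the annotated gene start, were held by the RefSeq table of build GRCm38.p6 for 8 of the 10 genes, all but Gsr and Prdx6 (11 windows, of which 4 belong to Gpx4). They are shown for the 3 genes in which a searched motif was found, and the match is in capitals. The Gpx2 window is chr12:76795505-76795804 on the minus strand, the Prdx1 window is chr4:116685349-116685648 on the plus strand and the Sod1 window is chr16:90220512-90220811 on the plus strand.
Gpx2: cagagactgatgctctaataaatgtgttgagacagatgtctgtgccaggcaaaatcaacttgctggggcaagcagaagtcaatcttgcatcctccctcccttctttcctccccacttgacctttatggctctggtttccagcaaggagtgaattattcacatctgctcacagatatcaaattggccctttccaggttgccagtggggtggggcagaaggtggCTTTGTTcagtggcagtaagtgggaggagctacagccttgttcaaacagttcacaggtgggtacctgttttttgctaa
Prdx1: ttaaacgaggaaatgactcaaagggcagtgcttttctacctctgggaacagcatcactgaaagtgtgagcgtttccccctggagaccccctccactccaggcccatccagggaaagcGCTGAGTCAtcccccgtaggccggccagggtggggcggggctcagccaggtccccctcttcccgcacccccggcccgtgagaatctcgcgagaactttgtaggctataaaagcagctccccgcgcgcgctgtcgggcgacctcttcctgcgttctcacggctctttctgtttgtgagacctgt
Sod1: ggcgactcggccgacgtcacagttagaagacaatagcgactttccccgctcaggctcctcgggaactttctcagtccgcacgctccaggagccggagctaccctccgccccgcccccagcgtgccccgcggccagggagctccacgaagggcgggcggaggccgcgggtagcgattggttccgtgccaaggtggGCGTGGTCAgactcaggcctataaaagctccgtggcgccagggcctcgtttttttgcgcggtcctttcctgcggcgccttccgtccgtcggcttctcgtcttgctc

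The searched motifs were the core of the antioxidant response element, TGACNNNGC, the E-box CACGTG bound by Myc and related factors, and Tcf and Lef cores, namely CTTTGAT, the variant CTTTGAA and the further variant CTTTGTT, each on both strands. The antioxidant response core was present in the Prdx1 window as GCTGAGTCA, whose first base lies 133 bases before the gene start, and in the Sod1 window as GCGTGGTCA, 56 bases before it. Both matches are on the opposite strand, and the letters in Prdx1 also hold the AP-1 motif TGAGTCA. The Gpx2 window held CTTTGTT with its first base 28 bases before the gene start. Among all 32851 windows of this length, 12.4% held TGACNNNGC, 5.85% held CTTTGTT, 7.15% held CACGTG, 3.73% held CTTTGAT and 5.14% held CTTTGAA, and the last 3 were in none of the 11 windows of the enzyme genes. As the values below show, the windows of Prdx1 and Sod1 share a match, while Prdx1 was called in β-catΔEx3 livers and Sod1 was not. These matches describe letters in a window and not binding.

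Compared with WT, 8 of the 10 enzyme genes were higher in β-catΔEx3 livers, 0 were lower and 2 were not called. The 8 were Gpx2, Gpx3, Gsr, Gpx4, Prdx6, Prdx1, Cat and Sod2, and in each the lowest β-catΔEx3 liver lay above the highest WT liver. Over all items tested, 21.5% were called higher and 15.5% lower in this comparison, and 24.8% had β-catΔEx3 values wholly above WT. The median log2 fold change was 0.93 over the 10 genes and 0.10 over all items.

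In β-catΔEx3:Myc livers, 6 of the 10 genes were higher than in WT (Gpx2, Gpx3, Gsr, Gpx4, Sod2 and Prdx6), 0 were lower, and Gpx1, Sod1, Cat and Prdx1 were not called. These 6 were also the genes whose mutant values all lay above WT. Among all items, 25.3% were called higher, 17.1% lower, and 24.9% had β-catΔEx3:Myc values wholly above WT. The median was 0.75 over the enzyme genes and 0.14 over all items. The comparisons with WT use the same 4 WT arrays, so they are not independent of each other.

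**Figure D1:**
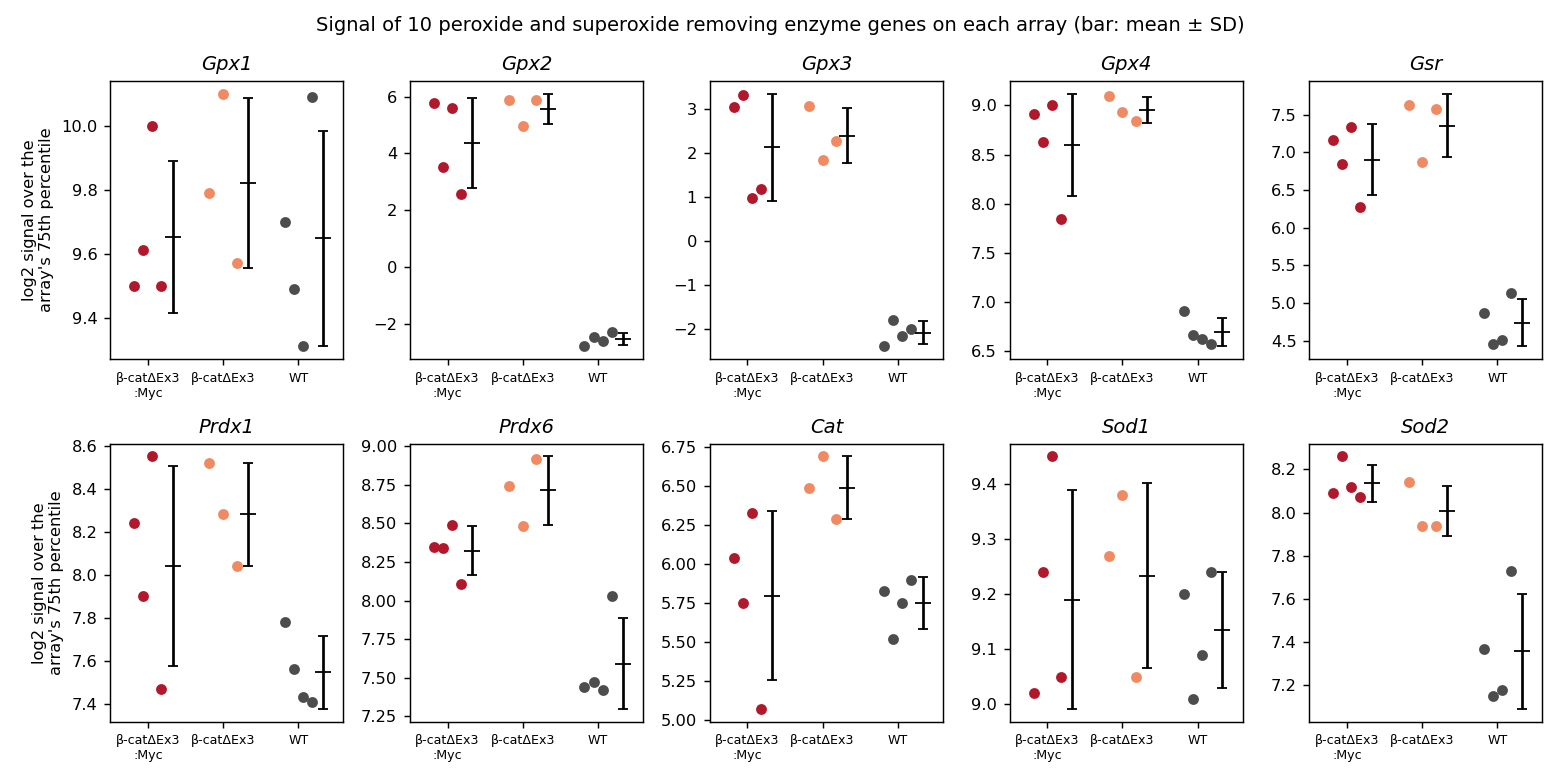
Log2 signal over the array's 75th percentile (vertical axis, own range for each gene) of the 10 enzyme genes on every array, with the groups β-catΔEx3:Myc, β-catΔEx3 and WT from left to right. Points are arrays in replicate order and the bar gives the mean ± SD. Gpx2, Gpx3, Gpx4 and Gsr have mutant values well clear of WT, while the groups overlap for Gpx1 and Sod1.

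Of the 10 genes, Gpx2, the glutathione peroxidase best known from the lining of the gut, differed most from WT. Its levels were 5.77, 3.52, 5.60 and 2.56 in β-catΔEx3:Myc livers, 5.88, 4.97 and 5.89 in β-catΔEx3 livers, and -2.80, -2.47, -2.60 and -2.30 in WT livers. The lowest mutant liver, β-catΔEx3:Myc replicate 4, was still far above the highest WT liver. Gpx2 was 279-fold higher in β-catΔEx3 than in WT livers (95% interval 98.2 to 793), a log2 fold change of 8.12 ± 0.68 (SE, adjusted p = 2.97e-05), which put it at place 12 from the top of the 22293 items. In β-catΔEx3:Myc livers it was 120-fold higher than in WT (interval 45.7 to 316, log2 fold change 6.91 ± 0.63, adjusted p = 3.42e-05) and at place 18. Without β-catΔEx3:Myc replicate 4 that log2 fold change was 7.51. The WT signals, 41 to 51.8 scanner units, were low but above background on all 4 WT arrays.

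Gpx3, the glutathione peroxidase secreted into plasma, came next. Its levels were 3.05, 3.32, 0.98 and 1.18 in β-catΔEx3:Myc livers, 3.08, 1.85 and 2.28 in β-catΔEx3 livers, and -2.39, -1.78, -2.15 and -1.99 in WT livers. The β-catΔEx3:Myc livers were uneven, with replicates 1 and 2 more than 1.5 log2 units above replicates 3 and 4, and none reached down to WT. The fold change over WT was 22.3 in β-catΔEx3 livers (log2 4.48 ± 0.56, adjusted p = 0.000307) and 18.5 in β-catΔEx3:Myc livers (log2 4.21 ± 0.52, adjusted p = 0.000194). Gpx2 and Gpx3 did not always follow the same livers: β-catΔEx3:Myc replicate 3 was high for Gpx2 and lowest for Gpx3, and replicate 2 was low for Gpx2 and highest for Gpx3. In the same group replicate 1 was high and replicate 4 low for both genes. Among the β-catΔEx3 livers replicate 2 was the lowest for both.

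Gpx4 reduces lipid peroxides within membranes and protects cells from ferroptosis. Its levels were 8.91, 8.63, 9.0 and 7.85 in β-catΔEx3:Myc livers, 9.10, 8.93 and 8.84 in β-catΔEx3 livers, and 6.91, 6.67, 6.63 and 6.58 in WT livers. The groups did not overlap with WT, and β-catΔEx3:Myc replicate 4 was again the lowest mutant liver. Gpx4 was 4.79-fold higher than WT in β-catΔEx3 livers (log2 2.26 ± 0.25, adjusted p = 0.000156) and 3.73-fold higher in β-catΔEx3:Myc livers (log2 1.90 ± 0.23, adjusted p = 0.000183).

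Gpx1, the common cytosolic and mitochondrial glutathione peroxidase, did not pass the test. Its levels were 9.50, 9.61, 10 and 9.50 in β-catΔEx3:Myc livers, 9.79, 10.1 and 9.57 in β-catΔEx3 livers, and 9.70, 9.49, 9.31 and 10.09 in WT livers. The 3 groups overlapped, and WT replicate 4 was as high as any mutant liver but 1. The fold over WT was 1.13 in β-catΔEx3 livers (95% interval 0.805 to 1.58, adjusted p = 0.57) and 1.00 in β-catΔEx3:Myc livers (interval 0.733 to 1.37, adjusted p = 0.993). The intervals leave room for differences of that size.

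Gsr returns oxidised glutathione to its reduced form for the glutathione peroxidases. Its levels were 7.16, 6.84, 7.34 and 6.27 in β-catΔEx3:Myc livers, 7.63, 6.87 and 7.57 in β-catΔEx3 livers, and 4.87, 4.46, 4.51 and 5.13 in WT livers. Every mutant liver was above every WT liver. Gsr was 6.12-fold higher than WT in β-catΔEx3 livers (log2 2.61 ± 0.29, adjusted p = 0.000161) and 4.47-fold higher in β-catΔEx3:Myc livers (log2 2.16 ± 0.27, adjusted p = 0.000207).

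Prdx6 reduces phospholipid hydroperoxides with glutathione and also has phospholipase activity. Its levels were 8.35, 8.34, 8.49 and 8.11 in β-catΔEx3:Myc livers, 8.74, 8.48 and 8.92 in β-catΔEx3 livers, and 7.44, 7.47, 7.42 and 8.03 in WT livers. WT replicate 4 stood 0.56 log2 units above the next WT liver and just below the lowest mutant liver. The fold over WT was 2.17 in β-catΔEx3 livers (log2 1.12 ± 0.19, adjusted p = 0.00148) and 1.66 in β-catΔEx3:Myc livers (log2 0.73 ± 0.18, adjusted p = 0.0074).

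Prdx1, a cytosolic peroxiredoxin that is recycled by thioredoxin, gave smaller differences. Its levels were 8.24, 7.90, 8.55 and 7.47 in β-catΔEx3:Myc livers, 8.52, 8.28 and 8.04 in β-catΔEx3 livers, and 7.78, 7.56, 7.43 and 7.41 in WT livers. The β-catΔEx3 livers were all above WT, while β-catΔEx3:Myc replicate 4 lay among the WT livers. The fold over WT was 1.67 in β-catΔEx3 livers (log2 0.74 ± 0.24, adjusted p = 0.0358) and 1.41 in β-catΔEx3:Myc livers (95% interval 0.999 to 1.99, log2 0.49 ± 0.22, adjusted p = 0.1). The call in β-catΔEx3 livers was lost when any of WT replicates 2, 3 and 4 or β-catΔEx3 replicates 1 and 2 was left out (adjusted p 0.0687, 0.0794, 0.074, 0.127 and 0.073), and that in β-catΔEx3:Myc livers was gained without β-catΔEx3:Myc replicate 4 (log2 0.68, adjusted p = 0.0188).

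Cat, the peroxisomal catalase, was the gene with the least firm call. Its levels were 6.04, 5.75, 6.33 and 5.07 in β-catΔEx3:Myc livers, 6.49, 6.69 and 6.29 in β-catΔEx3 livers, and 5.83, 5.52, 5.75 and 5.90 in WT livers. The β-catΔEx3 livers were above all WT livers, and the β-catΔEx3:Myc livers lay on both sides of WT. Cat was 1.67-fold higher in β-catΔEx3 than in WT livers (log2 0.74 ± 0.26, adjusted p = 0.0485). That call was lost in 9 of the 11 fits that left out 1 array, with log2 fold changes of 0.64 to 0.84 and adjusted p up to 0.131, and only the fits without β-catΔEx3:Myc replicate 3 or 4 kept it. In β-catΔEx3:Myc livers the fold over WT was 1.03 (95% interval 0.71 to 1.5, adjusted p = 0.898).

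Sod2, the manganese superoxide dismutase of mitochondria, had levels of 8.09, 8.26, 8.12 and 8.07 in β-catΔEx3:Myc livers, 8.14, 7.94 and 7.94 in β-catΔEx3 livers, and 7.37, 7.15, 7.18 and 7.73 in WT livers. All mutant livers lay above WT, with WT replicate 4 the closest. The fold over WT was 1.57 in β-catΔEx3 livers (log2 0.65 ± 0.16, adjusted p = 0.0109) and 1.71 in β-catΔEx3:Myc livers (log2 0.78 ± 0.15, adjusted p = 0.00231).

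Sod1, the copper and zinc superoxide dismutase of the cytosol, had levels of 9.02, 9.24, 9.45 and 9.05 in β-catΔEx3:Myc livers, 9.27, 9.38 and 9.05 in β-catΔEx3 livers, and 9.20, 9.01, 9.09 and 9.24 in WT livers. The groups overlapped throughout. The fold over WT was 1.07 in β-catΔEx3 livers (95% interval 0.844 to 1.35, adjusted p = 0.658) and 1.04 in β-catΔEx3:Myc livers (interval 0.833 to 1.29, adjusted p = 0.795). The sign of Sod1, Gpx1 and, in β-catΔEx3:Myc livers, Cat changed with the way arrays were scaled, and none of these was called in either direction.

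**Figure D2:**
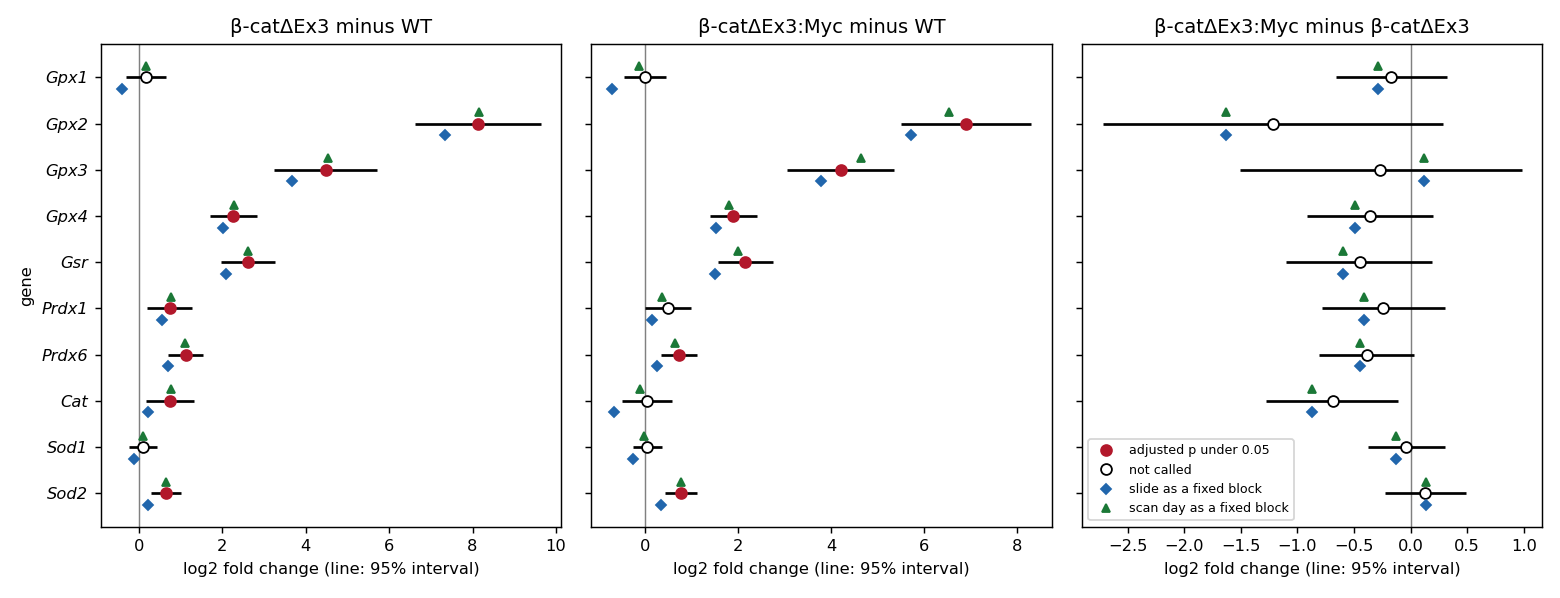
Log2 fold change with its 95% interval (horizontal axis) of the 10 genes (vertical axis) in the 3 comparisons. Filled red points had an adjusted p below 0.05, blue diamonds show the value with slide as a fixed block and green triangles the value with scan day as a fixed block. With the slide block Gpx2 in β-catΔEx3 livers moves to 7.34, and Sod2 to 0.21.

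The arrays lay on 4 slides, per the file headers, and these were not balanced. Slide 1 held WT replicates 1, 2 and 3 and no mutant liver, so that with slide as a fixed block the contrast with WT rests on WT replicate 4, the only WT liver on a slide with mutants (slide 4). WT replicate 4 was the highest WT liver for 7 of the 10 genes, and β-catΔEx3:Myc replicate 4, on the same slide, was the lowest of its group for 8 of 10. β-catΔEx3:Myc replicate 3 lay alone on slide 3 and on its scan day, so a fixed block for either takes it out of the contrasts. It was the highest of its group for 7 of the 10 genes. With the slide block, calls over all items numbered 1812 in β-catΔEx3 and 1947 in β-catΔEx3:Myc livers, in place of 8269 and 9456, and those called higher were 4.15% and 4.29% of all items. Of the 10 genes, 4 were called higher in β-catΔEx3 livers, namely Gpx2 (log2 fold change 7.34, adjusted p = 0.0135), Gpx3 (3.66, adjusted p = 0.0279), Gpx4 (2.01, adjusted p = 0.0158) and Gsr (2.09, adjusted p = 0.0415). Blocked values were 0.70 for Prdx6 (adjusted p = 0.133), 0.56 for Prdx1 (adjusted p = 0.233), 0.21 for Cat (adjusted p = 0.673) and 0.21 for Sod2 (adjusted p = 0.578).

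In β-catΔEx3:Myc livers 3 genes were called with the slide block, Gpx2 (5.71, adjusted p = 0.0276), Gpx3 (3.78, adjusted p = 0.0264) and Gpx4 (1.52, adjusted p = 0.0333). The block gave 1.5 for Gsr (adjusted p = 0.0924), 0.35 for Sod2 (adjusted p = 0.348) and 0.26 for Prdx6 (adjusted p = 0.549). On slide 4 alone, with 1 liver of each group and so no test, the difference between β-catΔEx3:Myc and WT was 4.87 for Gpx2, 3.17 for Gpx3, 1.27 for Gpx4, 1.15 for Gsr, 0.35 for Sod2 and 0.08 for Prdx6. On the same slide β-catΔEx3 minus WT was 8.19 for Gpx2, 4.27 for Gpx3, 2.26 for Gpx4, 2.45 for Gsr, 0.89 for Prdx6 and 0.21 for Sod2. Slides 1 and 2 were scanned on 1 day, which held 2 β-catΔEx3:Myc, 2 β-catΔEx3 and 3 WT livers. With scan day as a block, or with those 7 arrays alone, 8 genes were called in β-catΔEx3 livers and 6 in β-catΔEx3:Myc livers, although among these arrays slide and WT cannot be told apart. Over all items, 22.5% were called higher in β-catΔEx3 and 23.2% in β-catΔEx3:Myc livers with the scan-day block, and 17.6% and 19.6% with the 7 arrays alone.

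**Figure D3:**
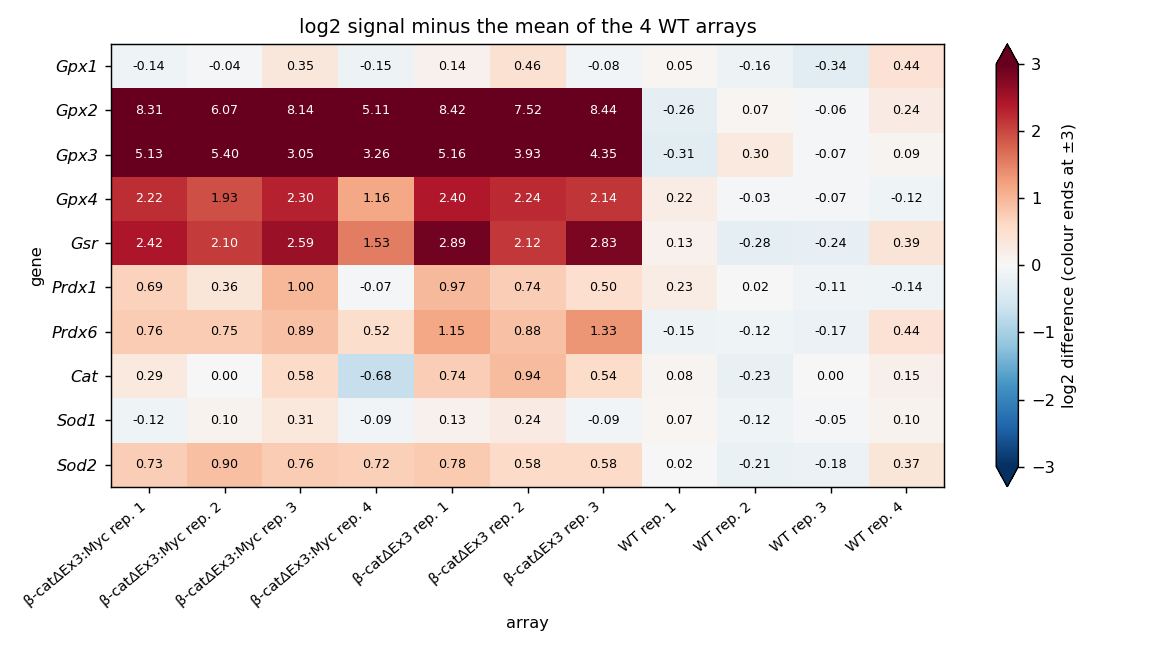
Log2 signal of each gene (rows) on each array (columns, grouped as β-catΔEx3:Myc, β-catΔEx3 and WT) minus the mean of the 4 WT arrays. Numbers give the difference and colours end at ±3. Gpx2 exceeds the WT mean by 5.11 to 8.44 in mutant livers, and WT replicate 4 lies 0.44 above that mean for Gpx1 and for Prdx6.

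Probes of the same gene did not always give the same size of difference. Prdx1 has a second, dimmer probe, which was higher than WT by 1.32 ± 0.23 in β-catΔEx3 livers (SE, limma adjusted p over all probes = 0.00194) and by 1.08 ± 0.22 in β-catΔEx3:Myc livers (adjusted p = 0.00291), on the log2 scale. The brighter Prdx1 probe used above gave 0.74 in β-catΔEx3 and 0.49 in β-catΔEx3:Myc livers. For Prdx6 the other 3 probes gave 1.70 to 1.77 in β-catΔEx3 livers and 1.23 to 1.30 in β-catΔEx3:Myc livers, against 1.12 and 0.73 for the brightest. All 4 Prdx6 probes were called in both mutant groups.

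The probes of Gsr lay close together, in β-catΔEx3 livers at 2.71 for the second and 2.61 for the first, and in β-catΔEx3:Myc livers at 2.26 and 2.16. The second Cat probe gave 0.51 ± 0.39 in β-catΔEx3 livers (adjusted p = 0.341) and 0.05 ± 0.36 in β-catΔEx3:Myc livers (adjusted p = 0.925). RefSeq lists related loci for some of these genes: Gpx2-ps1, Gpx4-ps1, Gpx4-ps2, Prdx1-ps, Prdx6-ps2 and the coding gene Prdx6b. Whether any probe also binds their transcripts was not tested.

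**Figure D4:**
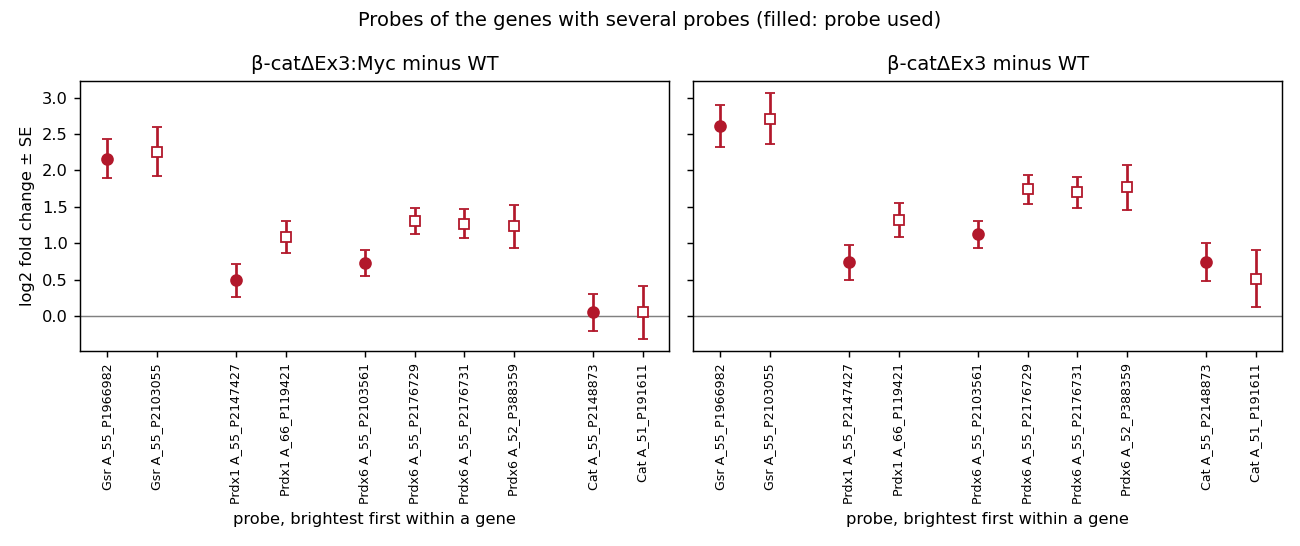
Log2 fold change ± SE (vertical axis) of each probe of Gsr, Prdx1, Prdx6 and Cat (horizontal axis, brightest probe first within a gene), β-catΔEx3:Myc minus WT on the left and β-catΔEx3 minus WT on the right. Filled circles are the probes used. The brightest probes of Prdx1 and Prdx6 lie below the others, at 0.74 and 1.12 in β-catΔEx3 livers.

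Between the livers labelled β-catΔEx3:Myc and those labelled β-catΔEx3 none of the 10 genes was called, and neither was Myc itself, as given above. In this comparison 0.251% of all items were called in either direction and 8.08% had groups that did not overlap. None of the 10 genes separated the β-catΔEx3:Myc from the β-catΔEx3 livers. At an unadjusted p below 0.05 there was 1 gene, Cat. It averaged 5.80 ± 0.54 in β-catΔEx3:Myc livers (SD, n = 4) and 6.49 ± 0.20 in β-catΔEx3 livers (SD, n = 3). Its log2 fold change was -0.69 ± 0.26 (SE, limma adjusted p = 0.378). The log2 fold change was below 0 for 9 of the 10 genes and above 0 for Sod2, with a median of -0.31 against 0.01 over all items.

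The intervals of this comparison were wide for the most changed genes. Gpx2 averaged 4.36 ± 1.57 in β-catΔEx3:Myc livers (SD, n = 4) and 5.58 ± 0.53 in β-catΔEx3 livers (SD, n = 3), so that its fold was 0.43 with a 95% interval of 0.151 to 1.22 (adjusted p = 0.605). For Gpx3 the fold was 0.83 (interval 0.35 to 1.97, adjusted p = 0.935). The narrowest were Sod1, with a fold of 0.97 (interval 0.766 to 1.23), and Sod2, with 1.09 (interval 0.853 to 1.41). Without β-catΔEx3:Myc replicate 4 the log2 fold change of Gpx2 was -0.62 in place of -1.22, and the median of the 10 genes was -0.12.

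A ratio between genes on the same array is not changed by a single scaling factor per array, though quantile normalization can change it. In all, 7 such ratios were compared over the 3 pairs of groups with exact 2-sided permutation tests (21 tests, ratios chosen after the values were seen). The log2 ratio of Gpx4 to Gpx1 ran from -1.64 to -0.59 in β-catΔEx3:Myc livers, from -1.17 to -0.69 in β-catΔEx3 livers and from -3.51 to -2.68 in WT livers. Its mean difference from WT was 1.90 in β-catΔEx3:Myc and 2.09 in β-catΔEx3 livers (exact p = 0.0286 for both, adjusted p = 0.0667 over the 21 tests). The same p was reached by the ratios of Gpx2, Gpx3 and Gsr to Gpx1 in both mutant groups and is the smallest that 3 or 4 livers against 4 can give. Gpx2, Gpx3, Gpx4 and Gsr had already been seen wholly above WT, and Gpx1 was not called. Such p-values follow largely from that choice and are no further support, as for Sod2 and Sod1 below. The test also treats arrays as exchangeable, although WT replicates 1, 2 and 3 lay alone on slide 1. An adjusted p below 0.05 could be had only if 13 or more of the 21 tests reached that smallest p, which 9 did, so the adjusted values say little here.

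The ratio of Sod2 to Sod1 ran from -1.33 to -0.93 in β-catΔEx3:Myc livers, from -1.44 to -1.11 in β-catΔEx3 livers and from -1.91 to -1.51 in WT livers. It exceeded WT by 0.73 in β-catΔEx3:Myc livers (exact p = 0.0286, adjusted p = 0.0667) and by 0.55 in β-catΔEx3 livers (exact p = 0.0571, adjusted p = 0.0999). The ratio of Prdx6 to Prdx1 overlapped between all groups, with a difference from WT of 0.23 in β-catΔEx3:Myc livers (exact p = 0.371) and 0.38 in β-catΔEx3 livers (exact p = 0.286).

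Likeness between profiles was measured as the root mean square difference between log2 levels over the 11 arrays after each gene was centred on its own mean, as a description without a test. Among the 10 genes the closest pairs were Gpx1 and Sod1 (0.16), Prdx1 and Cat (0.27), Prdx6 and Sod2 (0.27) and Gpx4 and Gsr (0.30). Among 13966 genes, Gpx2 was nearest to Abcc4, an organic anion exporter (0.50), and Cbr3, a carbonyl reductase (0.65), while its own profile had an SD of 3.89. Gpx3 was nearest to Cgref1 (0.64) and Sstr3, a somatostatin receptor (0.67). Gpx4 was nearest to Pir and to Prdx3, a mitochondrial peroxiredoxin (0.16 for each), and Gsr to Ppfibp2 (0.19) and the glucuronosyltransferase gene Ugt2b35 (0.21). For genes that vary little the measure says less: Prdx1 was nearest to Alg3 and Lin37 (0.11 each), Prdx6 to Cenpb (0.10) and Pdhx (0.14), and Sod2 to Phka2 (0.06) and Mdh1 (0.07), while Cat had Rnasek (0.17) among its nearest.

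Other genes of peroxide metabolism were taken from 8 lists with 126 genes, 120 of them tested. Of these, 71 were called in β-catΔEx3:Myc livers against WT, where 42.4% of all items were called in either direction, and 73 in β-catΔEx3 livers, where 37.1% were. By direction the shares of all items were those given above, 25.3% higher and 17.1% lower in β-catΔEx3:Myc livers and 21.5% higher and 15.5% lower in β-catΔEx3 livers. With slide as a fixed block 16 of the 71 and 24 of the 73 were still called, 70 and 72 kept their sign, and of all items 8.73% were called in β-catΔEx3:Myc and 8.13% in β-catΔEx3 livers. For most of the genes below, then, the call against WT was lost with that block, and the genes that kept it are named for each list. In the comparison of β-catΔEx3:Myc with β-catΔEx3, 0 genes were called in any of the lists.

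Among 18 other peroxiredoxin, thioredoxin and glutaredoxin genes, 9 were higher and 3 lower in β-catΔEx3:Myc livers, and 9 were higher and 4 lower in β-catΔEx3 livers. The median log2 fold change was 0.54 in β-catΔEx3:Myc and 0.47 in β-catΔEx3 livers. Srxn1, the sulfiredoxin that repairs overoxidised peroxiredoxins, was higher than WT by 4.33 in β-catΔEx3:Myc livers and by 4.92 in β-catΔEx3 livers. Prdx3 was higher by 1.85 in β-catΔEx3:Myc and 2.26 in β-catΔEx3 livers. Prdx4, the peroxiredoxin of the endoplasmic reticulum, was lower, with -1.89 in β-catΔEx3:Myc and -2.26 in β-catΔEx3 livers. Txnip, an inhibitor of thioredoxin, was lower by similar amounts in both, with -1.86 in β-catΔEx3:Myc (adjusted p = 0.0116) and -1.85 in β-catΔEx3 livers (adjusted p = 0.0199). With the slide block the calls of Srxn1, Prdx3 and Prdx4 held in both mutant groups. In β-catΔEx3 livers those of 2 thioredoxin reductase genes also held, Txnrd1 (higher, 1.94 without the block) and Txnrd2 (lower, -1.35). Txnip was not called with the block (adjusted p = 0.412 in β-catΔEx3:Myc and 0.368 in β-catΔEx3 livers).

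Of 8 tested genes for other glutathione peroxidases, superoxide dismutases and related membrane enzymes, 3 were higher and 2 lower in β-catΔEx3:Myc livers, and 2 were higher and 2 lower in β-catΔEx3 livers. The count of 2 higher in β-catΔEx3 livers is near the 21.5% of all items called higher there and is no result about the list. The microsomal glutathione transferases Mgst2 and Mgst3, which also reduce lipid peroxides, had log2 fold changes of 7.34 and 3.02 in β-catΔEx3:Myc livers and 5.52 and 3.84 in β-catΔEx3 livers. Sod3, the extracellular superoxide dismutase, was lower in both, with -2.85 in β-catΔEx3:Myc and -2.30 in β-catΔEx3 livers. Of the dismutases, Sod2 was higher, Sod3 lower and Sod1 not called in both mutant groups. Mgst2 and Mgst3 stayed called in both mutant groups with the slide block. In β-catΔEx3:Myc livers so did Sod3 (lower) and Gpx7 (higher, 0.53 without the block).

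Of 9 genes for glutathione synthesis, cystine import and glutathione breakdown, 5 were higher and 0 lower in β-catΔEx3:Myc livers, where 25.3% of all items were higher. In β-catΔEx3 livers, where 21.5% were, 6 were higher and 1 lower. Ggt1, Ggt5, Chac1 and Chac2 act in the breakdown, so the counts do not describe synthesis alone. Chac2 was the gene called lower in β-catΔEx3 livers (log2 fold change -1.02, adjusted p = 0.0206). Only Ggt1 stayed called with the slide block in β-catΔEx3:Myc livers, and Ggt1 and Slc7a11 in β-catΔEx3 livers. Gclc, the catalytic subunit of the first step, was higher by 2.22 in β-catΔEx3:Myc livers (adjusted p = 0.00374) and by 2.87 in β-catΔEx3 livers (adjusted p = 0.00187), on the log2 scale, which with the slide block became 1.5 (adjusted p = 0.324) and 2.40 (adjusted p = 0.144). Slc7a11, which imports cystine, was at background on all WT arrays and at least 185-fold higher in β-catΔEx3 livers. In β-catΔEx3:Myc livers, where 3 of 4 arrays measured it, the bound was 43.3-fold. That value includes an array at background and is no strict minimum. Ggt1, which breaks down extracellular glutathione, was also at background in WT and at least 58.1-fold higher in β-catΔEx3:Myc and at least 30.7-fold higher in β-catΔEx3 livers. These bounds set each WT array to the lowest signal that counted as well above background there, or to the gene's own signal where that was higher.

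Gpx1, Gpx2, Gpx3 and Gpx4 contain selenocysteine. Of 10 tested genes for selenoprotein synthesis and selenium transport, 3 were higher and 1 lower in β-catΔEx3:Myc livers, and 3 were higher and 0 lower in β-catΔEx3 livers, with medians of 0.23 and 0.21. These counts are near the share of all items called higher, 25.3% in β-catΔEx3:Myc and 21.5% in β-catΔEx3 livers, and are no result about the list. The slide block left a call for Eefsec in β-catΔEx3 livers and for no other gene of the list. Eefsec, the elongation factor for selenocysteine, was higher by 1.33 in β-catΔEx3:Myc and 1.70 in β-catΔEx3 livers, on the log2 scale. Trnau1ap, which acts with the selenocysteine transfer RNA, was higher by 0.39 in β-catΔEx3:Myc (adjusted p = 0.0485) and 0.44 in β-catΔEx3 livers (adjusted p = 0.0496). Sephs2, which makes selenophosphate, had 0.64 in β-catΔEx3:Myc (called) and 0.31 in β-catΔEx3 livers (not called). Scly, which recovers selenium from selenocysteine, had -0.45 in β-catΔEx3:Myc (called) and -0.26 in β-catΔEx3 livers (not called). Sepsecs had 0.16 in β-catΔEx3:Myc (not called) and 0.49 in β-catΔEx3 livers (called).

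Among 21 genes for oxidases that make peroxide or superoxide, 4 were higher and 13 lower in β-catΔEx3:Myc livers, and 5 were higher and 11 lower in β-catΔEx3 livers (medians -0.98 and -0.94). The counts of higher genes are near or below the shares of all items called higher, 25.3% in β-catΔEx3:Myc and 21.5% in β-catΔEx3 livers. The lower genes in both groups include Cyba, Cybb, Ncf1 and Ncf4, which encode parts of the NADPH oxidase of phagocytes. They had -1.57, -1.72, -1.76 and -1.20 in β-catΔEx3:Myc livers. Macrophage markers were lower too, as given below, and the part of these cells in the counts was not tested. With the slide block the calls of Ddo, Ero1b, Nox4 and Uox, all lower, held in both mutant groups. So did that of Ero1a, which was higher, by 0.64 in β-catΔEx3:Myc and 0.73 in β-catΔEx3 livers. The calls of Hao1 (lower) and Maoa (higher) held in β-catΔEx3 livers. Hao2, a peroxisomal hydroxyacid oxidase, was lower in both mutant groups, with a log2 fold change of -4.56 in β-catΔEx3:Myc livers. In β-catΔEx3 livers, where 2 of 3 arrays measured it, the fitted value of -6.72 includes an array at background and is no exact size. Hao2 with the slide block had -1.20 in β-catΔEx3:Myc (adjusted p = 0.599) and -3.51 in β-catΔEx3 livers (adjusted p = 0.148). Hao1, the glycolate oxidase, had -4.27 in β-catΔEx3:Myc and -7.03 in β-catΔEx3 livers. Nox4, an NADPH oxidase, was at background on all β-catΔEx3:Myc arrays and at least 33.4-fold lower there than in WT, and it was also called lower in β-catΔEx3 livers, where 2 of 3 arrays measured it. Maoa, a mitochondrial monoamine oxidase that releases hydrogen peroxide, was higher, by 4.31 in β-catΔEx3:Myc and 5.58 in β-catΔEx3 livers.

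Of 21 genes for the assembly and transport of peroxisomes, where Cat resides, 4 were higher and 3 lower in β-catΔEx3:Myc livers and 7 were higher and 1 lower in β-catΔEx3 livers. Of all items, 25.3% were called higher and 17.1% lower in β-catΔEx3:Myc livers, and 21.5% higher and 15.5% lower in β-catΔEx3 livers. The β-catΔEx3:Myc counts do not exceed these shares and are no result about the list. Pex19, a chaperone of peroxisomal membrane proteins, was higher by 1.18 in β-catΔEx3:Myc and 1.37 in β-catΔEx3 livers. The fatty acid transporter Abcd2 was lower, with -2.76 in β-catΔEx3:Myc and -3.78 in β-catΔEx3 livers, where 2 of 3 arrays measured it. Pex26 had -0.80 in β-catΔEx3:Myc (called) and -0.43 in β-catΔEx3 livers (not called). The medians of the list were 0.24 in β-catΔEx3:Myc and 0.29 in β-catΔEx3 livers, against 0.14 and 0.10 over all items. Pex19 in β-catΔEx3 livers alone stayed called with the slide block.

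Nrf2 regulators and further Nrf2 targets were higher in 10 and lower in 1 of 16 genes in β-catΔEx3:Myc livers, and higher in 12 and lower in 1 in β-catΔEx3 livers (medians 0.88 and 1.13). The higher genes include the regulators Keap1 (0.42 in β-catΔEx3:Myc, 0.66 in β-catΔEx3 livers) and Bach1 (0.72 and 0.88), so the counts do not describe targets alone. The gene called lower was G6pdx, at -1.79 in β-catΔEx3:Myc (adjusted p = 0.032) and -1.79 in β-catΔEx3 livers (adjusted p = 0.0487). With the slide block it was called in neither. Me1 was not called, with -0.52 in β-catΔEx3:Myc and 0.06 in β-catΔEx3 livers. Cbr3 was higher by 7.44 in β-catΔEx3:Myc and 8.55 in β-catΔEx3 livers, and Nqo1, a quinone reductase, by 4.38 in β-catΔEx3:Myc and 5.02 in β-catΔEx3 livers. Hmox1, heme oxygenase, was higher by 1.85 in β-catΔEx3:Myc (adjusted p = 0.0289) and 3.39 in β-catΔEx3 livers (adjusted p = 0.00267), and Maff, a small Maf partner of Nrf2, by 3.05 in β-catΔEx3:Myc and 2.94 in β-catΔEx3 livers. Cbr3 and Nqo1 stayed called with the slide block in both mutant groups and Fth1 and Pgd in β-catΔEx3 livers, while Hmox1 and Maff were called in neither, with Maff at 1.08 in β-catΔEx3:Myc (adjusted p = 0.455) and 1.09 in β-catΔEx3 livers (adjusted p = 0.462). Transcripts of Nfe2l2, which encodes Nrf2, were not called, with -0.33 ± 0.27 in β-catΔEx3:Myc livers (SE, limma adjusted p = 0.364) and -0.18 ± 0.30 in β-catΔEx3 livers (adjusted p = 0.662).

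Of 17 genes for copper, manganese and heme iron supply, which dismutases and catalase need, 3 were higher and 7 lower in β-catΔEx3:Myc livers and 3 were higher and 6 lower in β-catΔEx3 livers. The counts of higher genes do not exceed the shares of all items called higher, 25.3% in β-catΔEx3:Myc and 21.5% in β-catΔEx3 livers. Slc30a10, a manganese exporter, was at background on all β-catΔEx3:Myc arrays and at least 57.4-fold lower there than in WT, and was also called lower in β-catΔEx3 livers, where 2 of 3 arrays measured it. Slc39a8, a manganese and zinc importer, was lower in both, with -1.35 in β-catΔEx3:Myc and -1.40 in β-catΔEx3 livers. So was Cp, the copper carrier ceruloplasmin, with -0.88 in β-catΔEx3:Myc and -1.46 in β-catΔEx3 livers. Alas2, the heme synthesis enzyme of red cells, was lower, with -2.19 in β-catΔEx3:Myc and -2.84 in β-catΔEx3 livers. Slc30a10 stayed called with the slide block in both mutant groups and Cp in β-catΔEx3 livers.

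**Figure D5:**
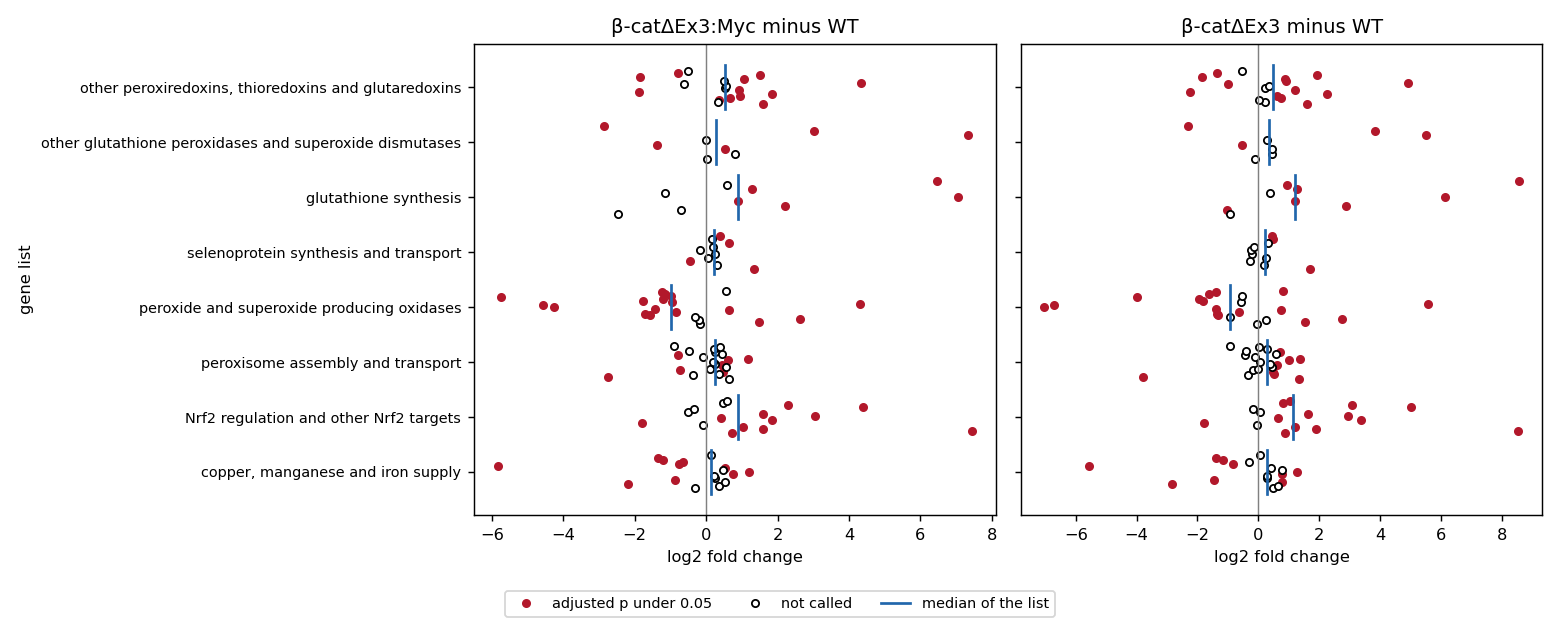
Log2 fold change (horizontal axis) of the tested genes of 8 lists (vertical axis), β-catΔEx3:Myc minus WT on the left and β-catΔEx3 minus WT on the right. Filled points had an adjusted p below 0.05 and blue lines are list medians. The oxidase list has medians of -0.98 and -0.94. The list labelled glutathione synthesis, which also holds genes of its breakdown, has 0.89 and 1.21.

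Markers of several other cell types differed between the groups. Of all items, 25.3% were called higher and 17.1% lower in β-catΔEx3:Myc livers. In β-catΔEx3 livers 21.5% were called higher and 15.5% lower. In bulk tissue, fewer cells of a type and less RNA per cell cannot be told apart. The summed level of 7 erythroid markers, relative to the 75th percentile, was 35 to 905 in β-catΔEx3:Myc livers, 42.1 to 158 in β-catΔEx3 livers and 529 to 1160 in WT livers, with 1 of them higher and 1 lower in β-catΔEx3:Myc and 0 higher and 4 lower in β-catΔEx3 livers. Red cells are rich in Cat, Gpx1, Prdx2 and Sod1. That of 8 macrophage markers was 16.2 to 59.9 in β-catΔEx3:Myc, 18.3 to 53.5 in β-catΔEx3 and 215 to 335 in WT livers, and all 8 were called lower than WT in both mutant groups. With the slide block 0 of the 8 were called in either, with values still below 0 and adjusted p of 0.0665 to 0.353 in β-catΔEx3:Myc and 0.0644 to 0.307 in β-catΔEx3 livers. The 9 hepatocyte markers summed to 4970 to 6990 in β-catΔEx3:Myc livers, 5920 to 6770 in β-catΔEx3 livers and 8660 to 10900 in WT livers, with 6 lower than WT in β-catΔEx3:Myc and 5 in β-catΔEx3 livers and 0 higher in either. Among them only Apoa1 stayed called with that block, in both mutant groups. The erythroid calls were all lost with that block. The erythroid counts in β-catΔEx3:Myc livers are no higher than the shares of all items and are no result about these markers. The 6 endothelial markers summed to 26.6 to 42 in β-catΔEx3:Myc, 51.2 to 66.1 in β-catΔEx3 and 105 to 125 in WT livers. Of these, 4 were called lower in β-catΔEx3:Myc and 3 in β-catΔEx3 livers, and 0 higher in either. With the slide block 2 stayed called in β-catΔEx3:Myc and 0 in β-catΔEx3 livers. The 7 stellate cell markers summed to 7.86 to 17.9 in β-catΔEx3:Myc, 19.9 to 33.6 in β-catΔEx3 and 23.7 to 51.5 in WT livers. Here 5 were called lower in β-catΔEx3:Myc and 1 in β-catΔEx3 livers, and 0 higher in either. The slide block left 1 of these calls in each mutant group. The count of 1 in β-catΔEx3 livers is near the 15.5% of all items called lower there and is no result about these markers. For 7 neutrophil markers the sums were 8.59 to 82.3 in β-catΔEx3:Myc, 5.57 to 13.6 in β-catΔEx3 and 7.65 to 12.1 in WT livers. Mpo (2.62) and Ngp (2.84) were called higher in β-catΔEx3:Myc livers, Elane (1.85) in β-catΔEx3 livers, and 0 lower in either. These counts are near or below the shares of all items. The list medians were 1.84 in β-catΔEx3:Myc and -1.80 in β-catΔEx3 livers. With the slide block Mpo and Ngp stayed called and Elane did not. For 6 biliary markers the sums were 1.23 to 1.47 in β-catΔEx3:Myc, 2.42 to 2.71 in β-catΔEx3 and 1.83 to 4.21 in WT livers, and for 5 lymphocyte markers 5.04 to 9.4 in β-catΔEx3:Myc, 6.26 to 7.58 in β-catΔEx3 and 5.59 to 7.89 in WT livers. Such sums give most weight to the brightest markers. Of the 5 lymphocyte markers, 3 were called lower in each mutant group and 1 higher in β-catΔEx3:Myc livers. Their median log2 fold changes were -2.48 in β-catΔEx3:Myc and -2.60 in β-catΔEx3 livers. All 5 were above background in WT livers, against 2 to 3 in β-catΔEx3:Myc and 2 in β-catΔEx3 livers. The slide block left none of these lymphocyte calls. The sums of the other lists follow. For the 2 adipocyte markers tested, of 6 listed, the sums were 2.98 to 6.02 in β-catΔEx3:Myc, 2.34 to 8.91 in β-catΔEx3 and 0.225 to 1.17 in WT livers. Only Cidec was called higher in each mutant group, with a log2 fold change of 4.04 in β-catΔEx3 livers, and its calls held with the slide block. Cfd was not called, with -1.50 in β-catΔEx3:Myc and -0.75 in β-catΔEx3 livers. The higher sums therefore rest on Cidec alone and are no result about adipocytes. The part of these shifts in the levels of the enzyme genes was not tested.

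Scaling moved the whole distribution. With the 75th percentile taken over probes above background on all arrays, the median log2 fold change of all items was -0.08 in β-catΔEx3 and -0.01 in β-catΔEx3:Myc livers, in place of 0.10 and 0.14. The calls then numbered 3412 higher and 4671 lower in β-catΔEx3 livers, in place of 4803 and 3466, and 4428 higher and 4753 lower in β-catΔEx3:Myc livers, in place of 5638 and 3818. Under that scaling 6 of the 10 enzyme genes were called in each mutant group, and in β-catΔEx3 livers Prdx1 (0.55, adjusted p = 0.0819) and Cat (0.56, adjusted p = 0.107) were no longer called.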

How the data were processed

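Transcripts were measured in 11 livers (4 β-catΔEx3:Myc, 3 β-catΔEx3, 4 WT) on 1-colour Agilent arrays read with Agilent Feature Extraction 10.7.1.1, per the file headers and the submitters' processing notes. The authors deposited a processed intensity per spot, background-subtracted and not normalized between arrays, and median foreground and background intensities. They also deposited a matrix of log2 values, whose columns all had a median of 4.51 and ranked probes as the scanner intensities did. The matrix served as an alternative.

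Control spots and outlier spots were dropped, and the remaining spots (59305 before outliers) were averaged within 55681 probes. Log2 signals were scaled by each array's 75th percentile. A probe stayed in if 3 or more arrays had it well above background (29708 did). Accessions were matched to RefSeq symbols (26582 probes, 20145 symbols), and the brightest probe stood for a gene, which left 13974 items with a symbol and 8319 without. The number of arrays limits the precision. Group means were fitted with limma 3.58.1 in R 4.3.3 (residual degrees of freedom 8, prior 2.51) and p-values adjusted by the Benjamini-Hochberg method at 0.05, 2-sided. The p-values set group differences against the spread between these livers, and the main fit has no term for slide. Ratios within arrays were compared by exact permutation tests. The fit was tested on simulated data. Genome positions of probes are not given because the symbols come with another build than the files.

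All 10 enzyme genes are named whatever their values. From each list the called genes with the 3 largest changes per comparison are named, and the 2 genes nearest in profile to each called enzyme gene. Genes that kept their call with the slide block, and the values of a named gene in the other comparison with WT, were added after the values were seen. So were a few further genes of the glutathione, oxidase, Nrf2 and adipocyte lists. The members and lists (8 pathway lists, and 9 lists with 70 markers of which 69 matched) were chosen with earlier results of these data known. Alternatives were other scalings and background correction, the deposited matrix, filters on dim probes, the mean over a gene's probes, slide as a fixed or random block, another moderation, and each array left out. Scan day as a block and the arrays of the shared scan day were added after the data were seen. The scanner files used lack the mean signal, so normexp (offset 50) ran on the median signal. A comparison of the proteins was planned and not run. Some genes that the naming rule takes are not reported here.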

Additional observations from a re-analysis of the deposited data

Results flagged for a closer look

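Prdx6 in WT replicate 4 had a log2 level of 8.03, far from the other WT livers, of which the nearest was at 7.47. Chance flags about 1 in 20 groups of samples in this way. All 10 genes were screened in the WT and in the β-catΔEx3:Myc livers, so 1 flag is about the number that chance gives. WT replicate 4 was the only WT liver on slide 4, had a given age of 31 days, and was the highest WT liver for 7 of the 10 enzyme genes. Without it Prdx6 was still called higher than WT in both mutant groups.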

How the results depend on the processing

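With slide as a fixed block, the number of enzyme genes called higher fell to 4 in β-catΔEx3 and 3 in β-catΔEx3:Myc livers. Under the other settings that kept all arrays it was 6 to 8 and 5 to 7, and with 1 array left out 6 to 8 and 6 to 7. The calls lost outside the slide block were those of Prdx1, Cat and Prdx6. Gpx2, Gpx3 and Gpx4 were called in both mutant groups under every setting run, Gsr in all but the slide block in β-catΔEx3:Myc livers, and Sod2 in all but the slide block. In no setting was a gene called with β-catΔEx3:Myc against β-catΔEx3. For results below, signs changed without a call in either direction.

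Quantile normalization gave Sod1 -0.12 in β-catΔEx3 minus WT, and Gpx1 -0.06, Cat -0.16 and Sod1 -0.20 in β-catΔEx3:Myc minus WT. The percentile over probes detected on all arrays gave Gpx1 -0.01 and Sod1 -0.09 in β-catΔEx3 minus WT, and Gpx1 -0.15, Cat -0.10 and Sod1 -0.10 in β-catΔEx3:Myc minus WT. Median centring gave Gpx1 -0.04 and Cat 0.00 in β-catΔEx3:Myc minus WT. The authors' matrix gave Sod1 -0.13 in β-catΔEx3, and Gpx1 -0.05, Cat -0.14 and Sod1 -0.21 in β-catΔEx3:Myc minus WT. Normexp gave Sod1 -0.12 in β-catΔEx3, and Gpx1 -0.17, Cat -0.18 and Sod1 -0.20 in β-catΔEx3:Myc minus WT. The slide block gave Gpx1 -0.41 and Sod1 -0.13 in β-catΔEx3, and Gpx1 -0.70, Cat -0.66 and Sod1 -0.26 in β-catΔEx3:Myc minus WT, and Gpx3 0.12 in β-catΔEx3:Myc minus β-catΔEx3. Slide as a random block gave Gpx1 -0.04 in β-catΔEx3:Myc minus WT. The scan-day block gave Gpx1 -0.12, Cat -0.11 and Sod1 -0.03 in that comparison and Gpx3 0.12 between the mutant groups, where the 7 arrays of the shared scan day gave Gpx3 0.72. The cause was not tested.

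With 1 array left out, β-catΔEx3:Myc minus WT ran from -0.11 to 0.15 for Gpx1, -0.13 to 0.29 for Cat and -0.03 to 0.11 for Sod1. Between the mutant groups it ran from -0.67 to 0.12 for Gpx3 and -0.14 to 0.03 for Sod1. Over all items the calls numbered 1812 in β-catΔEx3 and 1947 in β-catΔEx3:Myc livers with the slide block, in place of 8269 and 9456. Between the mutant groups they numbered 178 with the slide block, 171 with the scan-day block, 27 on the shared scan day, 126 with median centring, 35 with the percentile over detected probes and 86 with probes above background on all arrays, in place of 56. No paired analysis was possible because the labels give no number shared between groups.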
